A study of Homo sapiens with 2 samples.

Results

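The genes described here are 10 human genes of amino acid synthesis and stress: CTH and CBS (cysteine), ASNS (asparagine), PHGDH, PSAT1 and PSPH (serine), SHMT2 and MTHFD2 (mitochondrial one-carbon units), and the stress outputs TRIB3 and CHAC1. They were chosen by name in a table of ATF1 binding peaks, partly because the CTH peak was known to be among the strongest, and 8 of the 10 are named in it. The table holds 15064 peaks under 15064 gene names, 1 peak for each name. It comes from 1 chromatin immunoprecipitation (ChIP) library of HCT116, a human colon carcinoma line, given ATF1 with a 3xFlag tag and precipitated with 5 µg of antibody to the tag. The study also made 1 library of input DNA from HCT116 cells with no antibody, which was not analysed here. Neither library has a replicate and the labels name no cells without the tagged ATF1, so the values below describe this library, with no test between conditions. The level of the tagged ATF1 against the cell's own was not analysed here. Expression was not measured.

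ATF1 is a basic leucine zipper protein of the CREB family, which binds the cAMP response element (CRE), in its full or short form, and is activated by phosphorylation. The genes described here are better known as targets of ATF4, a relative whose translation rises when amino acids are short or the endoplasmic reticulum is stressed. ATF4 pairs with C/EBP proteins on a composite site, the C/EBP-ATF response element (CARE), found at ASNS, CHAC1 and TRIB3 among others. The enzymes make serine, glycine, asparagine and cysteine, the last of which feeds glutathione synthesis.

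The promoters below show the letters under or near the main peaks. They run from 250 bases before to 50 bases after the gene start, on the gene's strand, from RefSeq (GRCh38.p14, the same assembly as hg38). Capitals mark a short CRE (TGACG or its reverse complement) or a CARE core (TGATGNAA, N being any base). CTH, ASNS and MTHFD2 are shown because their peaks are the strongest of the 8 by fold enrichment, and CHAC1 because its promoter holds a CARE core but no listed peak. The windows are chr1:70411018-70411317 (plus strand) for CTH, chr7:97872359-97872658 (minus strand) for ASNS, chr2:74198365-74198664 (plus strand) for MTHFD2 and chr15:40953221-40953520 (plus strand) for CHAC1.
CTH: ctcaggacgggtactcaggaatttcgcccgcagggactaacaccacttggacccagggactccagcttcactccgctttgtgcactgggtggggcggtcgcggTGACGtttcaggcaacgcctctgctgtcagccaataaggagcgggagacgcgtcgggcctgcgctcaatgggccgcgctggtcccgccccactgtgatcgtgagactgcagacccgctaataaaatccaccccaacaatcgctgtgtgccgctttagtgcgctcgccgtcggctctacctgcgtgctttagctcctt
ASNS: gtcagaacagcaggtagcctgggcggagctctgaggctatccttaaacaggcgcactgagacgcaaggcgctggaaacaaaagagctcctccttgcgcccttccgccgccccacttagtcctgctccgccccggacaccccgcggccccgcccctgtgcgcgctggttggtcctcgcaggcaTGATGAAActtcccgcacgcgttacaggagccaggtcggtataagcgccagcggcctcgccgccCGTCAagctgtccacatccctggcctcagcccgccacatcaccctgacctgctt
MTHFD2: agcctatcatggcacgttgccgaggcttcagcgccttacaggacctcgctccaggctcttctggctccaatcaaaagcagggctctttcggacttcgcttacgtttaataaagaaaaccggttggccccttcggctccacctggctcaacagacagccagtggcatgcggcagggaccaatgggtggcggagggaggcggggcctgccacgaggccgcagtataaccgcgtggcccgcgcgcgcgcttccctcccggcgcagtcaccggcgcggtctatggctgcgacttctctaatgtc
CHAC1: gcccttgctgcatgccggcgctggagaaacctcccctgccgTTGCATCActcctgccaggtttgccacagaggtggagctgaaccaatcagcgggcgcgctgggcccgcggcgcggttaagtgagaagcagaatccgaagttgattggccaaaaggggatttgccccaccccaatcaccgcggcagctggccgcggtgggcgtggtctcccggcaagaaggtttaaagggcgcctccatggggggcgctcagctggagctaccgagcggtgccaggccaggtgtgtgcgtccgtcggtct

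ATF1 peaks lay at the starts of 7 of the 10 genes: all 3 serine synthesis genes, both one-carbon genes, ASNS and CTH. The exceptions were CBS, TRIB3 and CHAC1. A gene was counted when any listed summit, the highest point of a peak, lay within 1 kb of an annotated start, also where the table gives that peak another gene's name. Across 19974 protein-coding genes, 48.2% met this rule (50.4% of those with an annotated start, and 40.2% of those where either gene end had to stand in for it, as for PSPH and SHMT2), and the interval of the 7 of 10 (70.0%, exact 95% binomial interval 34.8 to 93.3%) includes that share. By name alone, 8 of the 10 were in the table, against 57.9% of protein-coding genes. The 8 named peaks had a median fold enrichment, the authors' ratio to an unspecified background, of 7.59, beside 6.97 over all peaks. Without CTH, which was chosen for its strong peak, the median was 6.81, below that of all peaks. Among the 7 genes with a start-site peak, which again include CTH, the median was 9.42, beside 7.83 over all protein-coding genes with one.

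**Figure D1:**
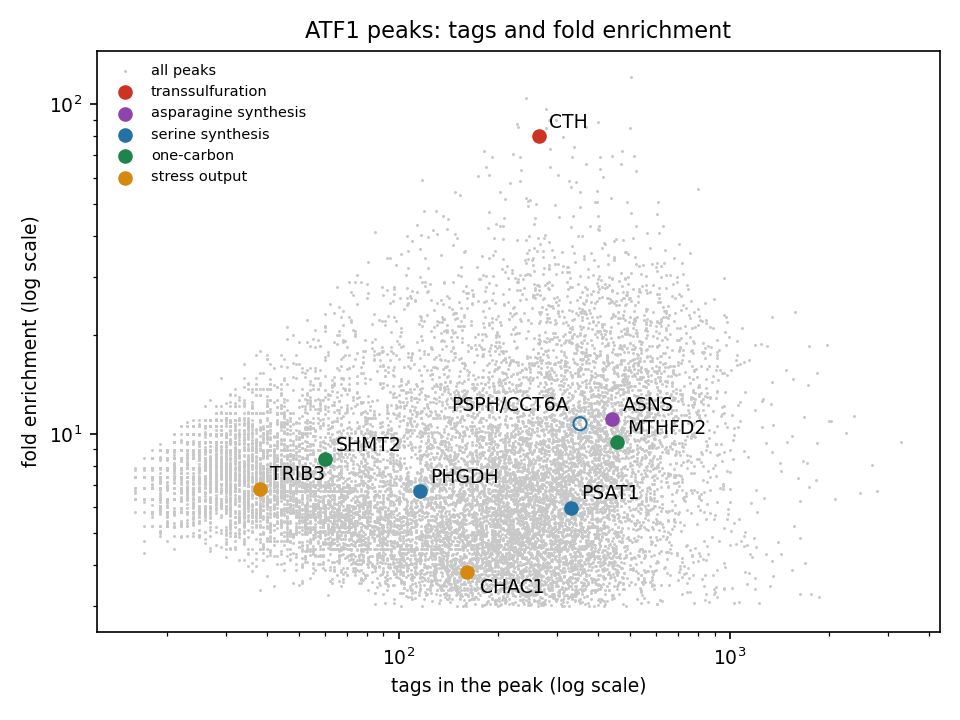
Tags (x axis, log scale) and fold enrichment (y axis, log scale) of each listed peak (grey) and of the named genes' peaks, coloured by role; the open circle is the peak between PSPH and CCT6A, which the table assigns to CCT6A. CTH stands at 80.28-fold with 265 tags, while ASNS and MTHFD2 hold more tags, 441 and 456, at 11.09-fold and 9.42-fold.

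CTH, which encodes the enzyme that cleaves cystathionine to release cysteine, had the strongest peak of the 8 by fold enrichment. Its peak (chromosome 1, 70410577 to 70411779, 1203 bp) held 265 tags (exact 95% Poisson interval 234 to 299), with a score of 2443.38 and 80.28-fold enrichment. Tags are the reads counted in the peak, and the basis of the score, a strength value with a lowest value of 50 in the table, is not stated. The fold enrichment ranked number 12 of the 15064 peaks, whereas its tags were above those of 68.5% of peaks and its tags per kb of peak above 91.3%. The summit lay 118 bp upstream of the RefSeq start at 70411268. In the promoter printed above, the short CRE, TGACG, began 147 bases before the start, and its centre was 27 bp from the summit.

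CBS, whose enzyme joins serine and homocysteine in the step before CTH, was not named in the table and had no summit within 30 kb. The closest listed summit to the gene was that of PKNOX1, 78638 bp away. No summit was listed on chromosome 21 between that one, at 42974553, and the LINC00322 summit at 43321753, a stretch of 347200 bp that also holds U2AF1 and CRYAA. CBS, U2AF1, CRYAA and SIK1 are known to have near-identical copies in this assembly, called CBSL, U2AF1L5, CRYAA2 and SIK1B. None of these 8 names was in the table, a comparison chosen after the CBS value was seen. No source used here says what was done with reads that fit several copies, so the missing CBS peak is uncertain, and the part of the copies in it was not tested.

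ASNS, which makes asparagine from aspartate and glutamine, had the peak with the next highest fold enrichment. The peak (chromosome 7, 97871568 to 97873203, 1636 bp) held 441 tags (interval 401 to 484), with a score of 939.34 and 11.09-fold enrichment, above 81.3% of peaks. By tags per kb it was above 96.2% of peaks, higher than CTH. RefSeq gives 2 starts on the minus strand in this region, 243 bp apart, at 97872408 and 97872165, and the summit at 97872264 lay between them. It was 144 bp downstream of the first and 99 bp upstream of the second. The CARE core, found as TGATGAAA, lay 68 bases before the first start and inside the peak, with its centre 208.5 bp from the summit. A further peak with 28 tags and 10.00-fold enrichment, assigned to LOC107986827, lay 34 bp inside the outermost 5′ end of the RefSeq ASNS gene on this strand, 55999 bp upstream of the nearer of the starts used here, which do not include that end.

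The serine synthesis genes encode the enzymes of a pathway of 3 steps, and each had a start-site peak, but the peaks differed in place and size. PHGDH, the enzyme of the first step, had a peak near the middle of the table by each measure and shifted into the gene (chromosome 1, 119711938 to 119713297). It held 116 tags (interval 95.9 to 139), with a score of 146.86 and 6.69-fold enrichment, above 45.1% of peaks. It began 4 bp after the RefSeq start and its summit was 782 bp inside the gene, in an intron by the table's class. It was the single member to lose its start-site peak when the window was narrowed to 500 bp.

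PSAT1, the aminotransferase of the second step, had a peak over its start (chromosome 9, 78296436 to 78298302) with the summit 65 bp upstream. The peak held 331 tags (interval 296 to 369) and had a score of 401.64, above 77.5% and 74.7% of peaks. Its fold enrichment of 5.97 was above only 36.4%. PSAT1 thus stood above the middle of the table by tags and score and below it by fold enrichment.

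PSPH, the phosphatase of the last step, was not named in the table, but a peak lay beside it. This peak (chromosome 7, 56050963 to 56052616) was assigned to CCT6A, a subunit of a cytosolic chaperonin. It held 353 tags (interval 317 to 392), with a score of 600.01 and 10.73-fold enrichment, above 79.8% of peaks. The ends of PSPH and CCT6A are 321 bp apart in RefSeq, and the genes are known to be transcribed away from each other. The summit was 209 bp from the end of PSPH and 112 bp from that of CCT6A, so the peak cannot be given to 1 of the pair. PSPHP1, a PSPH pseudogene on chromosome 7, was not named in the table and had no summit within 30 kb.

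**Figure D2:**
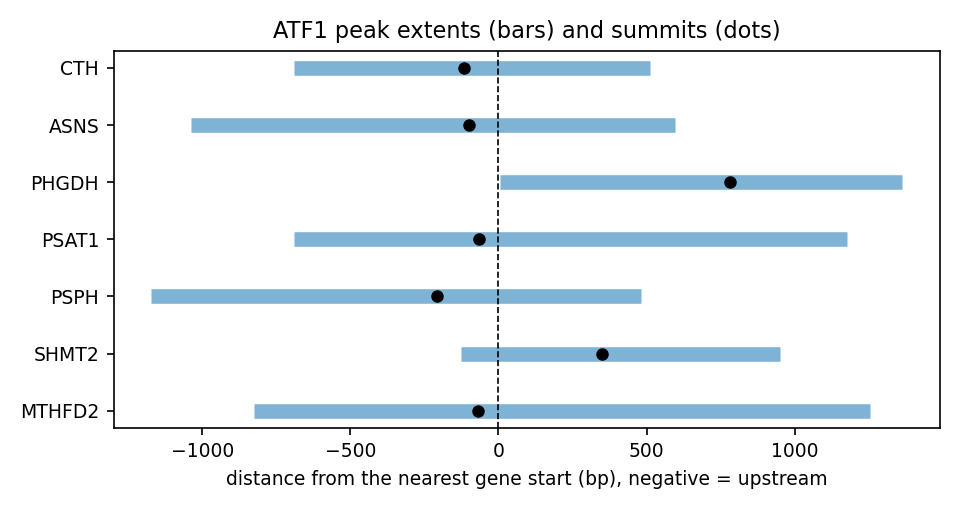
Extent of each start-site peak (bars) and its summit (dots), as distance in bp from the nearest annotated start; for PSPH and SHMT2, whose strand is not in the reference tables, negative values lie outside the gene. The summits of CTH, ASNS, PSAT1, PSPH and MTHFD2 lie 65 to 209 bp upstream, and those of SHMT2 and PHGDH 348 and 782 bp inside the gene.

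The mitochondrial one-carbon genes had peaks of unequal size. MTHFD2, which oxidises the folate-bound carbon unit in mitochondria, had the most tags of the 8 named peaks. Its peak (chromosome 2, 74197791 to 74199869, 2079 bp) held 456 tags (interval 415 to 500), with a score of 840.64 and 9.42-fold enrichment, and the summit was 68 bp upstream of the start. SHMT2, which splits serine into glycine and a carbon unit, had 60 tags (interval 45.8 to 77.2) and a score of 101.54 in a peak of 1078 bp (chromosome 12, 57229584 to 57230661). Its fold enrichment was 8.36, and its tag interval lay far below that of MTHFD2. The SHMT2 summit was exonic and 348 bp inside the gene.

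Neither stress output had a listed start-site peak, although both are named in the table. The table lists 1 peak for each name, so a further peak at either start could not appear under that gene's name. The TRIB3 peak (chromosome 20, 387879 to 388622) was exonic, 6909 bp from the nearest of its 3 RefSeq starts. TRIB3 encodes a pseudokinase that dampens ATF4 activity. The peak was the smallest of the 8, with 38 tags (interval 26.9 to 52.2), a score of 69.42 and 6.81-fold enrichment. By tags it was above 14.1% of peaks and by fold enrichment above 47.3%.

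CHAC1, whose enzyme breaks down glutathione, had the lowest fold enrichment of the 8, 3.80, above 6.70% of peaks; the lowest in the table is 3. Its peak (chromosome 15, 40941298 to 40942669) held 161 tags (interval 137 to 188) with a score of 86.60. The table classes it as upstream, 131 bp from the gene start that it lists at 40942135. RefSeq places the start of CHAC1 at 40953471, 11336 bp further on, so by that annotation the summit was 11467 bp upstream and the peak ended 10802 bp short of the start. The end of DLL4, a Notch ligand gene, was nearer, 2931 bp from the summit. The CARE core in the CHAC1 promoter printed above, found as TTGCATCA on the strand shown, began 209 bases before the RefSeq start and had no summit within 2 kb. The listed summit nearest to the start was that of LOC105370789, 7540 bp away, with 53 tags and 4.46-fold enrichment.

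**Figure D3:**
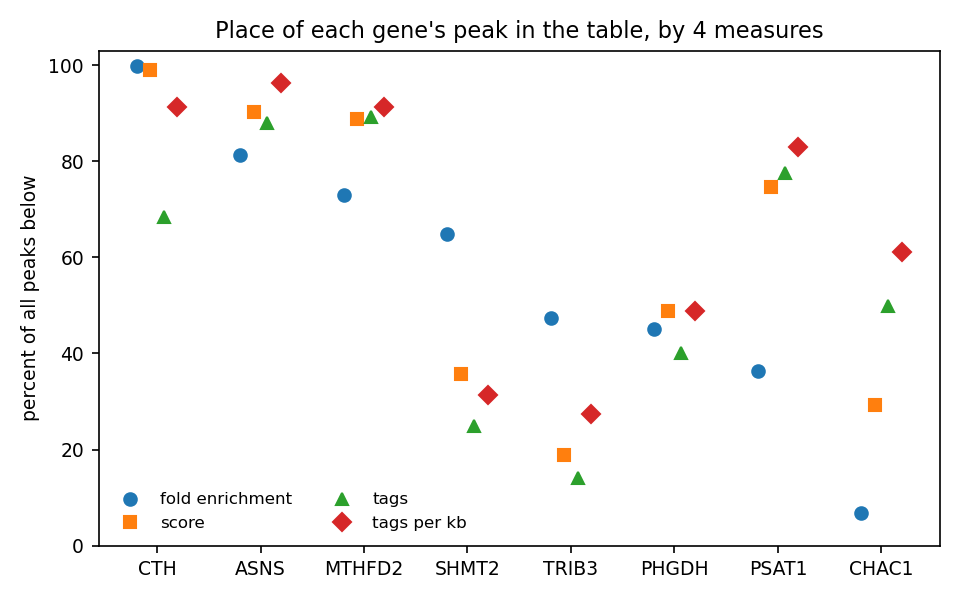
Percent of all 15064 peaks that lie below each gene's peak (y axis) by fold enrichment, score, tags and tags per kb of peak, for the 8 genes named in the table, ordered by fold enrichment. CTH, ASNS and MTHFD2 are above at least 68.5% of peaks by each measure. ASNS, MTHFD2, PSAT1 and CHAC1 are lower by fold enrichment than by the other measures.

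In order of tags the start-site and named peaks ran from MTHFD2, ASNS, the PSPH and CCT6A peak, PSAT1, CTH, CHAC1, PHGDH and SHMT2 to TRIB3. Counting error separated ASNS from the PSPH and CCT6A peak, CTH from CHAC1, and PHGDH from SHMT2. The tag intervals of the other neighbours in this order overlapped, and tags also depend on peak length. By fold enrichment, which comes with no error, CTH at 80.28 was followed by ASNS at 11.09, and the remaining 6 named peaks lay between 3.80 and 9.42. By the table's classes, 4 of the 8 named peaks were upstream (CTH, PSAT1, MTHFD2 and CHAC1), 2 intronic and 2 exonic, while 19.9% of all peaks were upstream, 33.9% intronic and 43.5% exonic.

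Promoter windows were given in RefSeq for 8 of the 10 genes, without SHMT2 and PSPH, and 4 motifs were searched on both strands. The CRE palindrome TGACGTCA was in none of the 8, and in 3.00% of the 15813 protein-coding genes with a window. The short CRE TGACG, which the palindrome contains on each strand, was in 2 of the 8, CTH and ASNS, against 34.5% of genes. In ASNS it read CGTCA, 4 bases before the first start, with its centre 146 bp from the summit. The summit lay outside the ASNS window printed above, which is that of the first start. The CARE core TGATGNAA was also in 2 of the 8, ASNS and CHAC1, against 3.61% of genes. Both genes were already known to hold a CARE, so this count is not an independent result. TRIB3 had no match to any of the 4 motifs in the windows of its 3 starts. These matches are letters in a window, not measured sites.

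The CCAAT box, CCAAT on either strand and known to be bound by NF-Y, was in 6 of the 8 (CTH, CBS, PHGDH, PSAT1, MTHFD2 and CHAC1), against 42.1% of genes. In CTH its centre was 3 bp from the ATF1 summit, and in MTHFD2, where a second copy lay 114 bp away, it was 4 bp from the summit. PSAT1 had 3 copies, at 15, 16 and 46 bp from the summit. In PHGDH the box was 851 bp from the summit, outside the peak. These distances were compared after the values were seen and have no background. The summits of PSAT1 and MTHFD2 lay within 15 bp of a CCAAT box in windows with no short CRE, and that of CTH lay between a short CRE and a CCAAT box. ASNS, whose peak was above 96.2% of peaks by tags per kb, had no CCAAT box in either window. Across all promoter windows the CCAAT box was in 37.6% of those with a summit and 33.7% of those without. Whether the box has a part in these peaks was not tested.

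**Figure D4:**
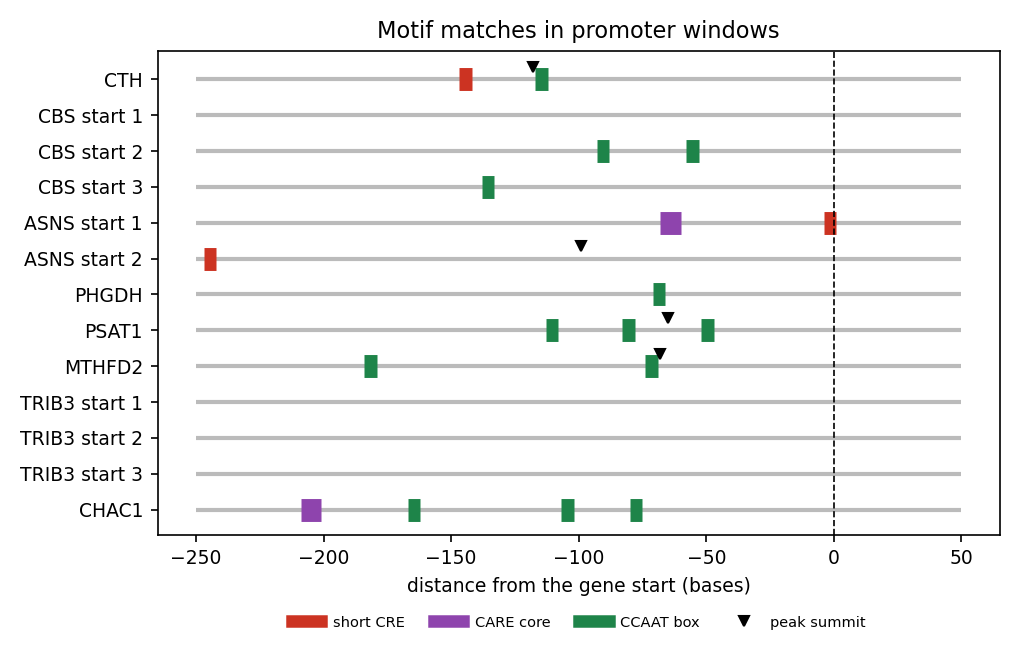
Motif matches (coloured blocks) and peak summits (triangles) in the promoter windows of 8 genes, by distance in bases from each annotated start (dashed line); genes with several starts have 1 line for each. The CTH summit lies 118 bp upstream of the start, between the short CRE and the CCAAT box, and the CARE cores are in the windows of ASNS and CHAC1.

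Other genes of the same pathways were taken from 5 lists with 99 genes, none of them among the 10. Of these 99, 75 had a start-site peak (75.8%, interval 66.1 to 83.8%), against 48.2% of protein-coding genes. Their median fold enrichment, 7.83, was the same as over all protein-coding genes with such a peak. When only the stronger 7556 peaks were used, 47 of the 99 and 28.1% of all genes remained.

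Among serine, glycine and one-carbon genes, 12 of 16 had a start-site peak. GCSH, a subunit of the glycine cleavage system, had 349 tags and 14.96-fold enrichment, and MTHFD1L, a mitochondrial formate synthetase, had 541 tags and 11.41-fold. Among methionine, cysteine and glutathione genes, 15 of 20 had one (interval 50.9 to 91.3%). With a 2 kb or 5 kb window the list stayed at 15 of 20, while the share of all genes rose to 52.0% or 56.9%, above the lower limit of this interval. AHCYL1, a relative of S-adenosylhomocysteine hydrolase, led with 586 tags and 23.46-fold, followed by MAT2B, a subunit of S-adenosylmethionine synthetase, at 15.10-fold and GCLM, a subunit of the first enzyme of glutathione synthesis, at 9.51-fold. The 80.28-fold of CTH was above all of these, but CTH was chosen with its strong peak known, so this is no finding.

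Genes of glutamate, aspartate, proline, arginine and branched-chain amino acid metabolism had a start-site peak at 17 of 18 (94.4%, interval 72.7 to 99.9%). GOT1, the cytosolic aspartate aminotransferase, had 322 tags and 26.20-fold enrichment, and ASL of arginine synthesis had 12.54-fold. Amino acid transporter genes had one at 6 of 14 (42.9%, interval 17.7 to 71.1%). With a 2 kb window it was 8 of 14 (57.1%), against 52.0% of all genes. By name, 12 of the 14 (85.7%) were in the table, beside 87.9% of the 99 related genes and 57.9% of protein-coding genes. SLC3A2, the heavy chain of several exchangers, had 140 tags and 41.92-fold, SLC38A9, a lysosomal sensor of arginine, 12.68-fold, and SLC36A1, a lysosomal exporter, 8.57-fold.

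Genes of the integrated stress response, the pathway that raises ATF4, had a start-site peak at 25 of 31 (80.6%, interval 62.5 to 92.5%). The strongest were at EIF2B1, a subunit of the exchange factor eIF2B (540 tags, 30.48-fold), at EIF2S1, the eIF2 subunit that stress kinases phosphorylate (193 tags, 26.76-fold, assigned to ATP6V1D), and at DDIT3, the stress factor CHOP (325 tags, 21.36-fold). The ATF4 peak had 363 tags and 7.81-fold enrichment, above 59.5% of peaks, with its summit 480 bp from a start. TRIB3 and CHAC1, which lie downstream of ATF4 and DDIT3, had no listed start-site peak, as described above. Each is listed with 1 peak only. The list was not divided into upstream genes and outputs, so a contrast between them was not tested. Within the list, DDIT4 (14.29-fold), XPOT (11.53-fold), PPP1R15A (11.03-fold), TNFRSF10B (10.14-fold), GDF15 (6.69-fold) and SESN2 (6.62-fold) also had a start-site peak. ATF3, NUPR1, VLDLR, STC2, FGF21 and BBC3 had none listed.

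**Figure D5:**
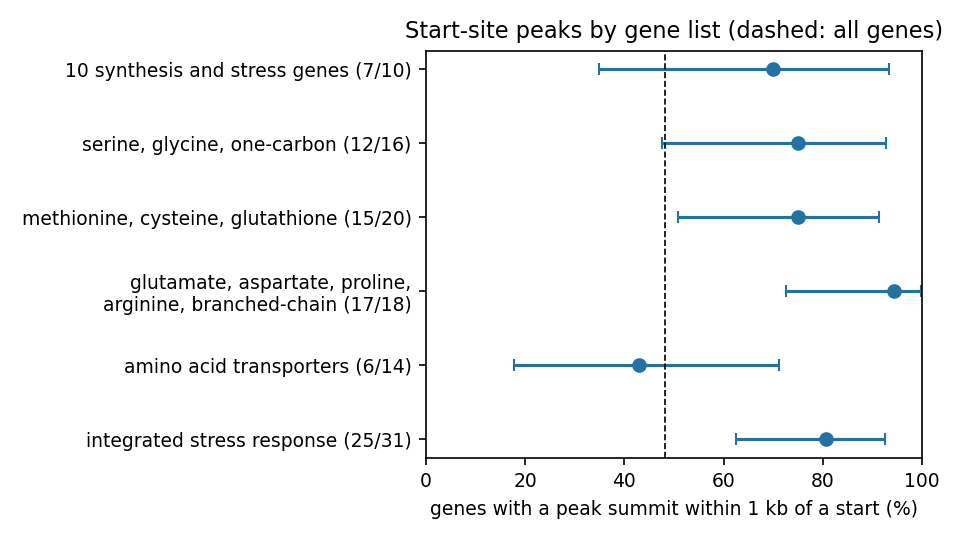
Share of genes in each list with a peak summit within 1 kb of a start (dots, x axis in percent), with exact 95% binomial intervals over genes (bars); counts are in the labels and the dashed line is the share of all protein-coding genes, 48.2%. The intervals of the 10 genes, of the serine list and of the transporters include the dashed line, and the other 3 lie above it with this window, that of the methionine list narrowly, from 50.9%. The lists were chosen with earlier results known and their genes are not replicates, so this comparison is no test.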

How the data were processed

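The data are 1 ATF1 ChIP-seq peak table of HCT116 cells. Per the labels' protocols, cells were fixed with 1% formaldehyde and chromatin was sheared to between 200 and 400 bp. The labels give 10% serum for both libraries. The submitters' processing notes name CASAVA, Bowtie2, bedtools and hg38; peak caller, control and settings: not given in the sources used here. The authors deposited tags as raw counts for each peak, a fold enrichment, which is a ratio to an unspecified background, and a score of unstated basis. These served to describe and rank peaks within the table. The library's depth is unknown, and 1 line without a position was left out.

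Starts came from the RefSeq promoter table (GRCh38.p14) for 15813 of 19974 protein-coding genes (autosomes and X), and either gene end was used for the other 4161, including PSPH and SHMT2. Poisson and Clopper-Pearson intervals cover counting error only, and genes of a list are not replicates. The members and lists were chosen with earlier results of these data known. Genes named are the 10 members, genes sharing their peaks, their copies, the 3 strongest of each list, ATF4 and further genes of the stress response list. Some genes that this rule takes are left unreported. The peak assignment and the motif search were tested on simulated data. Alternatives changed the window, the peak threshold, the ranking measure and the motif search. Python 3.11.15, numpy 2.4.6, pandas 2.3.3, scipy 1.17.1 and matplotlib 3.10.9 were used.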

Additional observations from a re-analysis of the deposited data

How the results depend on the processing

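The 7 of 10 genes with a start-site peak became 6 with a 500 bp window (without PHGDH) and 5 with the stronger 7556 peaks (without PHGDH and PSAT1), and stayed 7 with 2 kb or 5 kb windows, any overlap, at least 5-fold enrichment, a score of at least 100, or either gene end. The related genes went from 75 to 47 with the stronger 7556 peaks, where the share of all genes fell to 28.1%. The CARE core count of 2 became 1 (ASNS) from 150 bases before the start and 5 with 1 mismatch allowed, against 43.1% of genes. The short CRE, palindrome and CCAAT box counts did not change from 150 bases before the start; for the CCAAT box this setting was added after the data were seen. The median fold enrichment of the named peaks, 7.59, was 8.89 with start-site summits or a score of at least 100, CTH included. All peaks at a protein-coding start had a median of 7.62, and none was taken for all peaks with that score. Without CTH the median of the named peaks was 6.81, below the 6.97 of all peaks. The methionine, cysteine and glutathione list went from 15 of 20 to 13 with a 500 bp window or either gene end, 14 with a score of at least 100, 11 with at least 5-fold enrichment and 7 with the stronger 7556 peaks, against 44.1%, 48.0%, 40.7%, 38.6% and 28.1% of all genes. By tags the SHMT2 peak was above 24.9% of peaks, against 64.8% by fold enrichment, and the CHAC1 peak above 49.8%, against 6.70%. With the depth unknown and 1 peak listed for each name, a missing peak does not show missing binding.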

Other observations

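Across all 22156 promoter windows of protein-coding genes, the short CRE (TGACG) was in 44.5% of the 5540 windows that held a listed summit and in 22.3% of the 16616 that did not. In the 619 windows with a summit of at least 20-fold enrichment, a class that includes CTH, it was in 76.4% and the palindrome in 19.1%, against 5.16% of all windows with a summit. The CARE core was in 0.939% of windows with a summit and 3.29% of those without. The CCAAT box was in 37.6% and 33.7%. These shares describe windows of the reference in 1 library, windows of a gene can overlap, and base composition was not matched. The 20-fold threshold was chosen after the table had been seen.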
